A study of Homo sapiens with 4 samples.

Results

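Adjacent cassette exons are exons that can each be skipped and that sit side by side in a transcript. Here a pair was formed where the downstream flank of one cassette exon event was the cassette exon of another event of the same gene, and the upstream flank of that second event was the first exon. The rule uses positions only. It found 4249 member exons among the 27483 cassette exons of the authors' deposited table, or 15.5%. They formed 2371 exon pairs in 1676 of the 9172 genes of the table. An exon is listed once for each combination of flanks, so the members were measured in 4789 events, which formed 2736 pairs of events.

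The study compared splicing in HEK293T cells, a human embryonic kidney cell line, with and without RBFOX2, an RNA-binding protein also named RBM9. The labels give 4 strand-specific libraries of total RNA depleted of ribosomal RNA, 2 of wild-type genotype and 2 of RBFOX2 knockout genotype. Cells of both groups passed through the Cas9 plasmid PX459 and guides flanking RBFOX2, and each library is 1 clone expanded from a sorted single cell and genotyped by PCR. The differences between clones of one genotype therefore enter any comparison. No RBFOX2 event was in the table (0 events), so the targeted gene could not be checked there.

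A cassette exon is either joined to both of its flanking exons or left out. Where cassette exons are neighbours, their choices can be coupled: mutually exclusive exons replace each other, so that a transcript holds one or the other, while tandem cassettes can be kept or dropped together. Mutually exclusive exons often arose by duplication and still resemble each other in sequence. RBFOX proteins bind GCATG elements and are known to promote inclusion from the intron downstream of an exon and skipping from the intron upstream.

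For every event the authors' deposited table gives an inclusion difference, the inclusion level of the first set of libraries minus that of the second. An inclusion level is the portion of junction reads, scaled for length, that join the exon to a flank, between 0 (always skipped) and 1 (always kept). The sources do not say which set is the knockout, so directions below are between sets. Library columns could not be tied to clones and were not used. Levels, read depth and spread between clones are therefore not given, and neighbours were compared by their differences, not library by library. An event is said to pass at a deposited false discovery rate (FDR) under 0.05, adjusted over all 31408 events, if its difference is also 0.1 or more in either direction. The deposited p-values are for the difference between the sets and rest on 2 libraries a set, each from a single clone.

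The sequences of 5 pairs are shown because their exons are known alternatives of each other, are fully coding, and carry the changes or the resemblance described below. They were chosen after their values were seen. GENCODE 29 also holds transcripts that join the exons of FGFR3 and of U2AF1, but none that joins those of FYN, ATE1 or P4HA1. Each exon is written from 5′ to 3′ on the transcribed strand, and capitals mark the bases that are identical in an alignment with the neighbour. The sequences come from GENCODE 29 transcripts matched by exon and intron lengths. FYN, a Src-family tyrosine kinase, has a pair that encodes the linker between its SH2 and kinase domains. The 5′ exon is used in the brain form of the kinase and the 3′ exon in the T-cell form. FGFR3, a fibroblast growth factor receptor, has a pair that encodes alternative ends of the third immunoglobulin-like domain, which set ligand specificity. ATE1 encodes the enzyme that attaches arginine to proteins.
FYN 5' exon, 165 nt: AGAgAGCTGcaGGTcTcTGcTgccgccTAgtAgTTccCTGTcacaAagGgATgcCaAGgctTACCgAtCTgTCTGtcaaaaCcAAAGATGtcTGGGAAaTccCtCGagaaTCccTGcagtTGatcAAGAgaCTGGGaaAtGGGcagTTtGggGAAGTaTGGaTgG
FYN 3' exon, 156 nt: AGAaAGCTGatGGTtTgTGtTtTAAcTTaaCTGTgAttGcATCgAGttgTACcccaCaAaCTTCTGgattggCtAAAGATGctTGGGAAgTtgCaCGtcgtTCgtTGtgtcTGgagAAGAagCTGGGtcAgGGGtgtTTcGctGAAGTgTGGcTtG
FGFR3 5' exon, 151 nt: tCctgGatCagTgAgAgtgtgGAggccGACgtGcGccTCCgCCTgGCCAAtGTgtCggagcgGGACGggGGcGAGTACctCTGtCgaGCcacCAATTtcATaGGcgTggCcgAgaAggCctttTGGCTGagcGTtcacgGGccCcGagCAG
FGFR3 3' exon, 145 nt: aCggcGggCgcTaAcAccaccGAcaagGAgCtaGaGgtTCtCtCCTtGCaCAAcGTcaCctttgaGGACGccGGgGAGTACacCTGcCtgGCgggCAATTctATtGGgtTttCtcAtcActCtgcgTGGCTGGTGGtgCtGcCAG
ATE1 5' exon, 129 nt: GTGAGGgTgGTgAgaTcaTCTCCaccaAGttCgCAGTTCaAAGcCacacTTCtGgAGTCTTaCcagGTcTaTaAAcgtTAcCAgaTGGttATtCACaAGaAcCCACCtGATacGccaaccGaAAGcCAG
ATE1 3' exon, 129 nt: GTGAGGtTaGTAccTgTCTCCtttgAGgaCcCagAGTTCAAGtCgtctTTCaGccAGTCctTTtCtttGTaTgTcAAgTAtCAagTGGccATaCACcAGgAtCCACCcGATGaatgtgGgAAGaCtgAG
P4HA1 encodes a catalytic subunit of the prolyl hydroxylase that modifies collagen. U2AF1 encodes the small subunit of the splicing factor that reads the AG at the 3′ splice site. The P4HA1 exons lie at chr10:74804739-74804809 and chr10:74803645-74803715 and the U2AF1 exons at chr21:44521476-44521542 and chr21:44520563-44520629, both genes on the minus strand (hg19).
P4HA1 5' exon, 71 nt: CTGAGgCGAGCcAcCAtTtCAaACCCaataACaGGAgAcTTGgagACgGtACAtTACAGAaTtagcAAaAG
P4HA1 3' exon, 71 nt: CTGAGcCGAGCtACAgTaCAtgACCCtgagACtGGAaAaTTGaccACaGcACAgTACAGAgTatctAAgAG
U2AF1 5' exon, 67 nt: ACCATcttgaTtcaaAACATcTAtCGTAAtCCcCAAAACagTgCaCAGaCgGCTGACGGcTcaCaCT
U2AF1 3' exon, 67 nt: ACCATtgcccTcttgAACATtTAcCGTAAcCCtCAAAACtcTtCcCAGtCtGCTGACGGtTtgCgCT
In FYN, 92 bases of the alignment were identical, or 55.8% of the longer exon. Identity was 49.7% in FGFR3, 59.7% in ATE1, 64.8% in P4HA1 and 65.7% in U2AF1. The letters GCATG, the RBFOX element, were in none of these exons.

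Among the 2736 pairs of events, neither event passed in 2508 pairs, 1 passed in 222 and both passed in 6, or 0.219%. Few events passed at all, by the shares below. The 6 is therefore given as a count and not as a result about neighbours. The 6 pairs were in FYN, HNRNPC, PQLC1, TYW1B, CEP164 and SLC25A36. In 4 of them the neighbours differed in opposite directions, and in CEP164 and SLC25A36 they differed in the same direction. The share of all events that passed in the authors' deposited table was 5.15%, against 207 of the 4789 member events, or 4.32% (Wilson 95% interval 3.78 to 4.94, counting error only). The first set was higher in 126 passing member events, 2.63% of members beside 2.77% of all events. The second set was higher in 81, 1.69% of members beside 2.38% of all events. Counted by exon over all events, 343 of 4249 members passed in at least 1 event, 8.07% beside 5.73% of all exons. Members were also listed more often, 40.4% of them in more than 1 event against 6.57% of other exons, which gives more chances to pass. In the events of pairs alone, 201 members passed, or 4.73%.

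**Figure D1:**
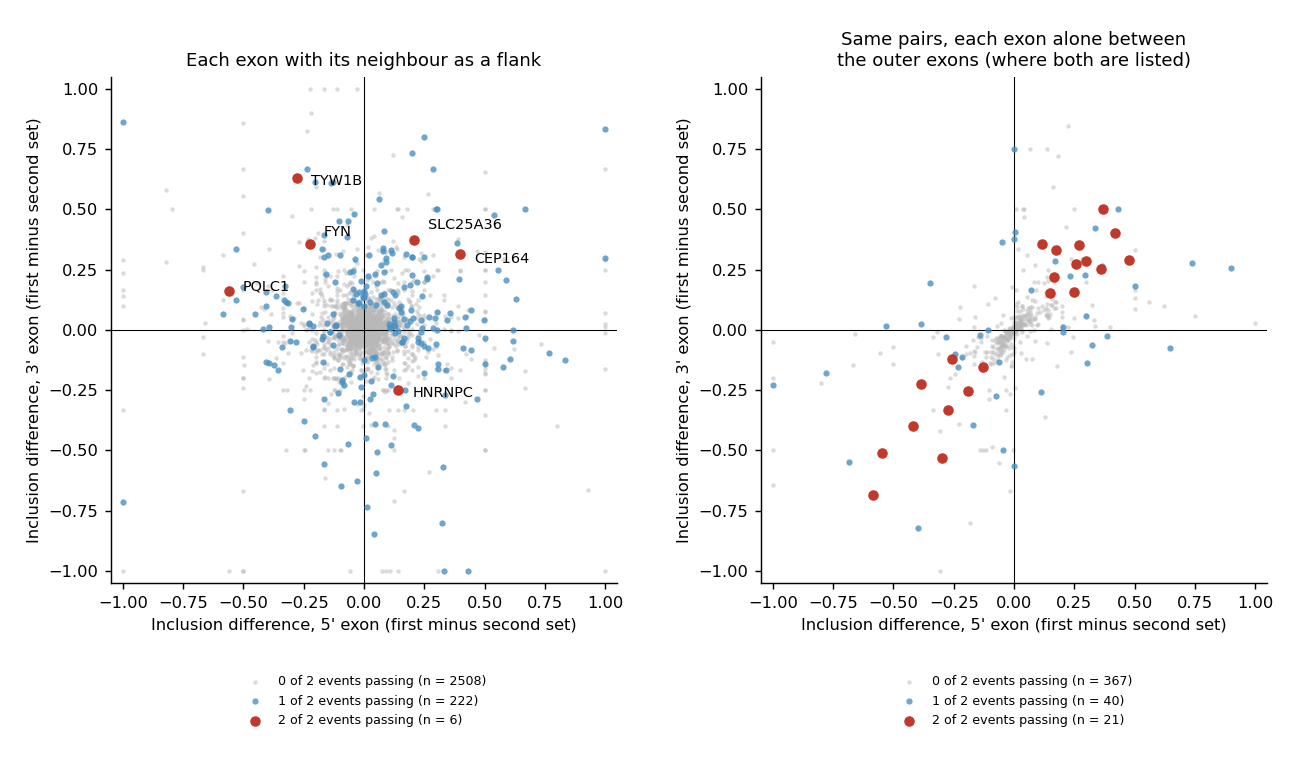
Inclusion differences (first minus second set, no unit) of the 5′ exon (x axis) and 3′ exon (y axis) of each pair. The left panel has 2736 pairs of events with the neighbour as a flank, and the 6 pairs with both events passing are named. The right panel has the 428 pairs whose exons were each also listed alone between the outer exons. Points fill all 4 quadrants on the left and run along the rising diagonal on the right, where 21 pairs have both events passing.

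FYN was one of the 4 pairs in which both neighbours passed with opposite signs. The 165-nt exon (chr6:112021307-112021471, hg19, minus strand) stood at -0.226 in the authors' deposited table (FDR 1.43e-04). Its neighbour of 156 nt, which lies 433 nt downstream (chr6:112020718-112020873), had 0.358 in the authors' deposited table (FDR 3.43e-11). The first set thus used more of the 3′ exon and less of the 5′ exon. GENCODE 29 holds transcripts with either exon and with neither, and no transcript that joins them. Where exons are not joined, the 5′ event weighs the junctions from the exon upstream to either exon, and the 3′ event weighs those from either exon to the exon downstream. Measured alone between the same outer exons, against skipping of both, FYN's exons were given as -0.027 and -0.014 in the authors' deposited table, each with a p-value of 1.

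HNRNPC encodes an abundant nuclear RNA-binding protein that packages nascent transcripts. Its 46-nt exon (chr14:21736782-21736827, minus strand) differed by 0.14 in the authors' deposited table (FDR 0.00208). The 163-nt neighbour 4793 nt downstream (chr14:21731826-21731988) had -0.248 in the authors' deposited table (FDR 0.0389). Neither exon was fully coding in a matched transcript, and GENCODE 29 never joins them. Alone between the outer exons, the 46-nt exon reached 0.02 in the authors' deposited table, under the minimum size (FDR 2.48e-04). HNRNPC's 163-nt exon, listed alone between the same outer boundaries, had 0.001 in the authors' deposited table, with a p-value of 1.

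PQLC1 encodes a membrane protein of the PQ-loop family. The authors' deposited table gives -0.562 for its 54-nt exon (chr18:77693969-77694022, minus strand), with a p-value listed as 0. The 217-nt neighbour (chr18:77679184-77679400) had 0.161 in the authors' deposited table (FDR 0.0304). Unlike FYN, these exons are joined in GENCODE 29 transcripts, both are coding, and 14568 nt lie between them. The same opposite signs stood alone between the outer exons in the authors' deposited table, -0.35 (FDR 3.51e-04) for the 54-nt exon and 0.195 (FDR 0.367, not passing) for the 217-nt exon.

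TYW1B, a gene for tRNA wybutosine synthesis, had -0.278 for its 119-nt exon (FDR 0.00305) and 0.629 for its 110-nt exon (FDR 9.57e-04) in the authors' deposited table. Its pair was not matched to GENCODE 29. TYW1 is a near-identical copy of this gene, so reads could be split between them and the TYW1B values are uncertain.

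CEP164 and SLC25A36 moved the other way, with both neighbours higher in the first set. CEP164 encodes a protein of the distal appendages of centrioles. Its 76-nt exon (chr11:117206321-117206396) had 0.398 (FDR 2.55e-04) in the authors' deposited table. Its neighbour of 103 nt, 2885 nt downstream (chr11:117209282-117209384) had 0.313 in the authors' deposited table (FDR 0.00327). GENCODE 29 joins these exons and lists a skip of each, but not of both. SLC25A36 encodes a mitochondrial carrier of pyrimidine nucleotides. Its 87-nt exon (chr3:140685190-140685276) had 0.207 (FDR 0.0486) in the authors' deposited table, and the 103-nt exon (chr3:140685776-140685878) had 0.373 (FDR 3.51e-04). Alone between the outer exons, the authors' deposited table gives -0.272 and -0.237 for the same SLC25A36 exons, neither passing (FDR 0.683 and 1).

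The 6 genes thus held both opposite and like signs. In the plot by gene, opposite signs appear as circles on either side of 0 and like signs as circles on one side. Signs alone do not tell whether transcripts exchange the exons or keep them together.

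**Figure D2:**
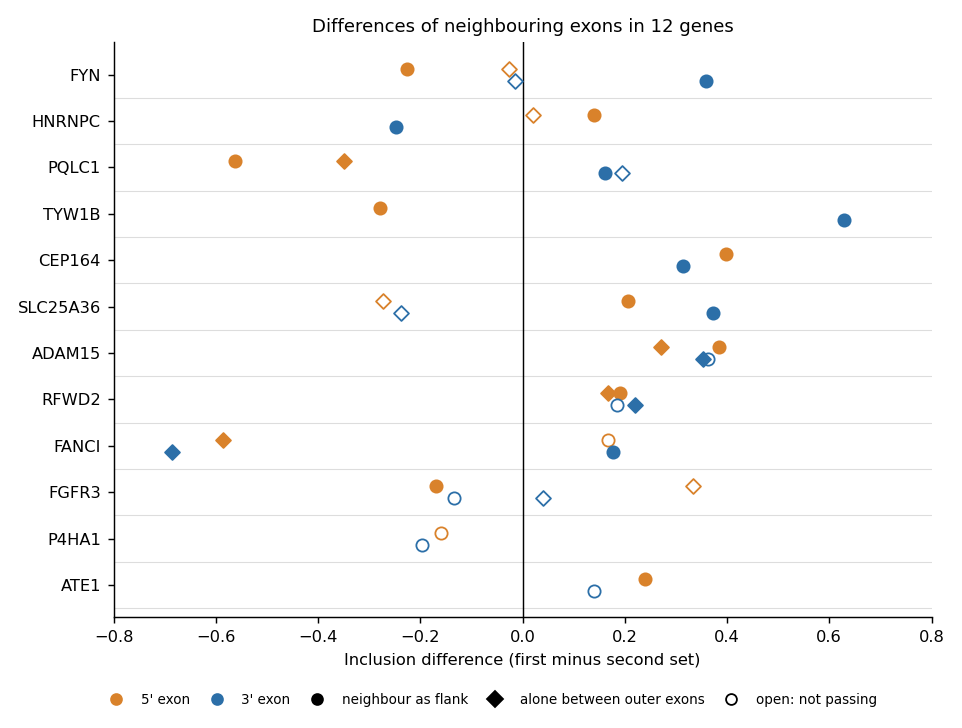
Inclusion difference (first minus second set, no unit) on the x axis for the 5′ exon (orange) and 3′ exon (blue) of a pair in 12 genes. Circles have the neighbour as a flank, diamonds are the same exon alone between the outer exons, and filled marks pass. FYN has circles at -0.226 and 0.358 with diamonds near 0, while the 4 marks of ADAM15 lie between 0.271 and 0.384.

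In the other 222 pairs with a passing event, 1 neighbour passed and the other did not. The 5′ exon was the passing one in 114 pairs and the 3′ exon in 108. The median absolute difference was 0.2855 for the passing exon, which passing selects for, and 0.0725 for its neighbour. The neighbour's deposited FDR was at least 0.5 in 203 of the 222 pairs, or 91.4%, and its p-value was exactly 1 in 121. The latter is 54.5% of the neighbours, beside 53.7% of all member events. A p-value under 0.05 was found for 18 neighbours, or 8.11%, beside 10.0% of all member events. These neighbours were chosen as not passing, which by itself leaves low FDR values out. All member events include the passing ones, so neither of their shares is a like reference for the neighbours. An absolute difference of at least 0.1 was nevertheless listed for 87 of the neighbours, so a high FDR did not always go with a small difference.

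The pairs with the lowest p-values of this kind were in PCBP1-AS1, GAK, ZNF664, MFSD8 and PARPBP. PCBP1-AS1 is a long noncoding RNA antisense to PCBP1, and whether counting of its junction reads used strand is not stated. Its 150-nt exon had 0.444 in the authors' deposited table, with an FDR listed as 0, and its 38-nt neighbour -0.084 with a p-value of 1. PCBP1-AS1's longer exon, listed alone between the outer exons, stood at -0.072 (not passing) in the authors' deposited table. Its shorter neighbour passed alone at -0.306 (FDR 0.00113), and with other flanks at 0.218 (FDR 0.0238), in the authors' deposited table. GAK, a kinase that acts in clathrin uncoating, had 0.417 (FDR 8.72e-14) for a 62-nt exon and 0.055 (p-value 1) for the 143-nt neighbour in the authors' deposited table. For ZNF664, a zinc-finger gene, the authors' deposited table gives -0.417 (FDR 1.53e-12) for a 118-nt exon and 0.003 (FDR 1) for its 58-nt neighbour. Alone between the outer exons the 118-nt exon of ZNF664 had only -0.055 in the authors' deposited table, under the minimum size at an FDR of 0.00167. MFSD8, a lysosomal membrane protein, had -0.65 (FDR 6.28e-11) for its 145-nt exon and -0.095 (FDR 1) for the 114-nt exon upstream of it in the authors' deposited table. PARPBP, a PARP1-binding protein, had 0.452 (FDR 3.2e-10) for a 136-nt exon and -0.067 (p-value 1) for the 79-nt neighbour in the authors' deposited table.

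Signs of neighbours were close to evenly mixed. Among the 2690 pairs with 2 differences other than 0, 1386 had the same sign, or 51.5%. Other pairs of events of 1 gene had the same sign in 51.4% of 64984. Where both p-values were under 0.05, 20 of 38 pairs had the same sign, or 52.6%. With an intron under 500 nt between the neighbours the share was 54.5%, and with one over 10 kb it was 48.6%. Pearson's r between the differences was -0.03 over the 2736 pairs. These shares carry no test, because the events of a pair share the reads of the junction between the exons and pairs of 1 gene share exons.

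The picture differed when the same neighbours were listed alone. In 428 pairs each exon was also measured on its own between the outer exons, against a junction that skips both. Among the 422 of these with differences other than 0, 370 had the same sign, or 87.7%, and r was 0.51. Both events passed in 21 pairs, and all 21 had the same sign. These events share the skipping junction, which enters both levels, so like signs are in part built into the counts. With the neighbour as a flank, the shared junction is the one between the exons, which counts as inclusion for both.

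An exon could pass in one setting and not in the other. Over 1268 listings of an exon in both settings, 82 passed beside the neighbour, or 6.47%, and 140 passed alone, or 11.04%, beside 5.15% of all events. The 16 that passed in both are counted in each. In 66 listings the exon passed beside its neighbour only, and 27 of these had a p-value of 1 alone. In 124 it passed alone only. Signs were the same in 664 of the 1246 listings with differences other than 0, or 53.3%. Of the 16 that passed in both, 11 had the same sign and 5 had opposite signs, in AFMID, FANCI, GAPVD1, NIPA2 and PCBP1-AS1.

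FANCI encodes a protein of the Fanconi anaemia DNA repair pathway. Its 84-nt exon (chr15:89788987-89789070) had 0.176 (FDR 1.76e-09) beside the 117-nt neighbour and -0.685 (FDR 5.65e-10) alone in the authors' deposited table. With other upstream flanks, also without that neighbour, the 84-nt exon had -0.148 and -0.034 (FDR 0.184) in the authors' deposited table, neither passing. FANCI's 117-nt exon is given in the authors' deposited table as 0.167 (p-value 1) beside the neighbour and -0.585 (FDR 3.13e-05) alone. With another upstream flank, that 117-nt exon of FANCI is listed beside the neighbour at -0.5 (FDR 0.335, not passing) in the authors' deposited table. The sign of a difference in FANCI thus depended on which junctions it was measured against. ADAM15, a membrane metalloprotease whose cytoplasmic tail is alternatively spliced, kept 1 sign throughout. Its 75-nt exon had 0.384 (FDR 0.00524) beside the neighbour and 0.271 (FDR 0.0292) alone in the authors' deposited table. ADAM15's 72-nt exon, 414 nt downstream, had 0.362 (FDR 0.123, not passing) and 0.353 (FDR 4.99e-04) in the authors' deposited table. RFWD2, an E3 ubiquitin ligase also called COP1, also had 1 sign, with values from 0.112 to 0.22 over the listings of its 69-nt and 60-nt exons in the authors' deposited table. RFWD2's 69-nt exon passed in 2 of its listings, at 0.191 and 0.167, and stood at 0.112 (p-value 1) in the other, in the authors' deposited table. RFWD2's 60-nt exon had 0.185 (FDR 0.141, not passing) beside its neighbour and 0.22 (FDR 6.4e-06) alone in the authors' deposited table.

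The share of events that passed was lower where the annotation held no skip. Of the 2736 pairs of events, 2674 matched GENCODE 29 by lengths, and its transcripts joined the neighbours directly in 2561, or 95.8%. Skipping of the 5′ exon alone was annotated in 39.5% of matched pairs, of the 3′ exon alone in 39.3% and of both in 22.2%. No skip of any kind was annotated in 1002 pairs, or 37.5%. Where no skip was annotated, 36 of 1849 events passed, or 1.95% beside 5.15% of all events. With at least 1 skip annotated, 165 of 2980 passed, or 5.54%. Among passing 5′ events 68.4% had their own skip annotated, against 38.2% of the 5′ events that did not pass. For 3′ events the shares were 71.8% and 37.9%. Events of pairs share exons and genes, so these shares are given as descriptions.

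**Figure D3:**
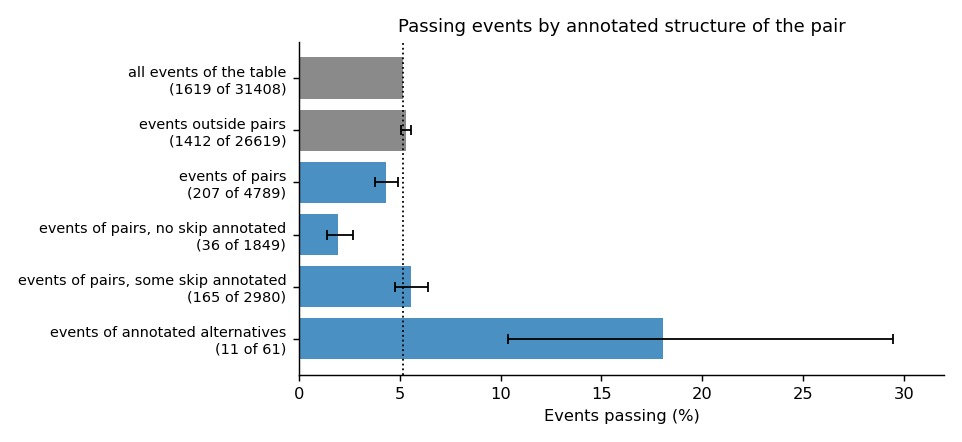
Share of events that passed (x axis, percent) by class of event, with the count in brackets and Wilson 95% intervals that cover counting error only. The dotted line is the share of all events, 5.15%. Events of pairs without an annotated skip sit at 1.95%, those with some skip annotated at 5.54%, and those of annotated alternatives at 18.0%.

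A small class had annotated junctions like those of mutually exclusive exons. In 31 pairs of events from 30 genes, GENCODE 29 held the junctions that skip either exon, from the upstream exon to the 3′ exon and from the 5′ exon to the downstream exon, but none that joined the neighbours. For most of these pairs a junction that skips both exons was annotated as well, so a transcript can hold neither exon. Among the pairs with a passing event, only TDP1 lacked it. In 28 of the 31, all 4 junctions to the outer exons were annotated. In ZFX, GRB10 and STAU1 the one from the 3′ exon downstream was not. Of their 61 events 11 passed, or 18.0% (Wilson 95% interval 10.4 to 29.5, counting error only), beside 5.15% of all events. In pairs with at least 1 skip annotated the share was 5.54%. The class requires the skip of each exon to be annotated, which by itself went with more passing above. How much of the 18.0% follows from that requirement was not tested. Both events passed in FYN, HNRNPC and SLC25A36. A single event passed in 5 further pairs, in ATE1, MFF, STAU1, TDP1 and PCBP1-AS1. TDP1's passing 223-nt exon had -0.375 (FDR 0.00521), but with other flanks it passed at 0.303 (FDR 9.23e-04), in the authors' deposited table. ATE1 had 0.239 (FDR 0.0349) for the 5′ exon (chr10:123659381-123659509) and 0.139 (FDR 1) for the 3′ exon (chr10:123658356-123658484) in the authors' deposited table. With other flanks, ATE1's 5′ exon had the opposite sign, at -0.4 (FDR 0.196, not passing) in the authors' deposited table. MFF, a mitochondrial fission factor, had -0.302 (FDR 0.00654) for its 75-nt exon and 0.01 (FDR 1) for the 60-nt exon in the authors' deposited table. MFF's 75-nt exon passed with the same sign when listed alone, at -0.14 (FDR 0.00252) in the authors' deposited table. STAU1, a double-stranded RNA-binding protein, had 0.555 (FDR 0.00355) for its 289-nt exon and 0.247 (p-value 1) for the 208-nt exon in the authors' deposited table. Alone between the outer exons, the 289-nt exon of STAU1 was at -0.062 (FDR 4.74e-04) in the authors' deposited table, of opposite sign and under the minimum size. STAU1's 208-nt exon was at -0.005 alone (not passing), but passed at 0.355 (FDR 0.00214) with other flanks, in the authors' deposited table. In the class as a whole, 19 of 31 pairs had the same sign. FYN and HNRNPC had opposite signs, and SLC25A36 did not.

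Each of the 4 lists of known genes had 1 or 2 passing member events. Each count is of passing member events, to be read beside 5.15% of all events. Of 16 genes known to respond to RBFOX proteins, 6 held pairs, with 1 of 17 events passing (5.88%), in CTNND1. Of 27 genes with textbook mutually exclusive exons, 7 held pairs, with 2 of 14 events passing (14.3%), in FGFR3 and MAPK8. Of 35 genes with tandem cassettes, 11 held pairs, with 1 of 28 events passing (3.57%), in KTN1. Of 40 splicing factor genes, 12 held pairs, with 2 of 33 events passing (6.06%), both in HNRNPC. The median absolute differences were 0.035, 0.057, 0.0605 and 0.019 in the same order, beside 0.048 over all events.

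CTNND1 encodes p120 catenin of the cadherin complex, a textbook RBFOX-regulated transcript. Its 72-nt exon (chr11:57561482-57561553) had 0.143 (FDR 6.93e-04) in the authors' deposited table, and the 289-nt neighbour upstream had 0.13 (FDR 0.152, not passing). CTNND1's 72-nt exon, listed alone, had -0.134 (FDR 0.687, not passing) in the authors' deposited table. In FGFR3 the 151-nt exon (chr4:1804641-1804791), used in the epithelial form of the receptor, had -0.17 (FDR 0.00249) in the authors' deposited table. FGFR3's 145-nt exon (chr4:1805419-1805563), used in the mesenchymal form, had -0.135 (FDR 0.348, not passing) in the authors' deposited table. Both FGFR3 values beside the neighbour were lower in the first set, not opposite as in FYN. Alone between the outer exons, FGFR3's exons had 0.333 and 0.04 in the authors' deposited table, each with a p-value of 1. MAPK8, the stress-activated kinase JNK1, had 0.48 (FDR 6.91e-04) for a 69-nt exon and -0.042 (FDR 1) for the 194-nt neighbour in the authors' deposited table. These MAPK8 exons are not fully coding and are not its kinase-domain exons known to exclude each other. KTN1, which encodes the kinesin-binding protein kinectin, had -0.105 (FDR 0.00127) for a 90-nt exon and -0.02 (p-value 1) for the 81-nt neighbour in the authors' deposited table. With another upstream flank, the 90-nt exon of KTN1 had 0.014 (FDR 1) in the authors' deposited table.

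P4HA1 and U2AF1, whose sequences are shown above, did not pass. P4HA1 had -0.16 (FDR 0.0653) and -0.196 (FDR 0.395) in the authors' deposited table, both lower in the first set. For U2AF1 the authors' deposited table gives -0.022 (FDR 0.876) and 0.026 (FDR 1). Resemblance between neighbours therefore came with and without a passing event.

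Close resemblance was rare among neighbours. The aligned bases were compared in 2292 exon pairs, and the median identity was 41.8% of the longer exon, with a 99th percentile of 59.1%. At least 60% identity was reached by 18 pairs. Among them were INO80C, a chromatin remodeller subunit, with 90.7%, and SLC3A2, the heavy chain of amino acid transporters, with 82.8%. Of the 18 pairs, 6 had a passing event, in SENP7, FAM49B, TCOF1, FKBP10, ADAM15 and SRPK2, and none had 2. That is 33.3% (Wilson 95% interval 16.3 to 56.3, counting error only), beside 8.68% of the 2292 pairs compared. TCF3, a helix-loop-helix transcription factor whose alternative exons encode its DNA-binding domain, fell just short. Its 201-nt exon had -0.093 (FDR 5.73e-05) and its 227-nt exon -0.081 (FDR 0.279) in the authors' deposited table.

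**Figure D4:**
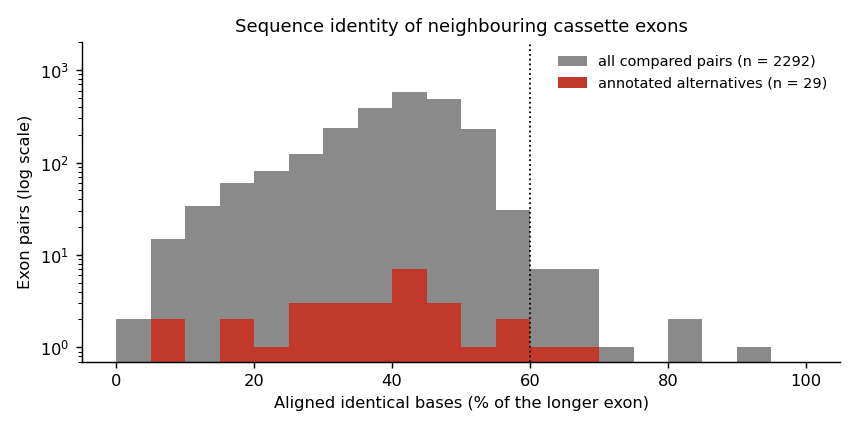
Number of exon pairs (y axis, log scale) by identity of the neighbours (x axis, identical aligned bases as a percent of the longer exon). Grey bars are the 2292 pairs compared and red bars the 29 annotated alternatives. The dotted line marks 60%, which 18 pairs reach.

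Neighbours resembled other cassette exons in length. The median was 113 nt for members and 117 nt for the other exons. Lengths divisible by 3, which keep the reading frame when an exon is skipped, made up 42.8% of members and 40.3% of the others. Of the 2371 exon pairs, 20.2% had both lengths divisible by 3, and in 17.9% neither length was but their sum was, so that only a joint skip keeps the frame. Among 1625 fully coding pairs the shares were 23.8% and 16.8%. Where the joint skip was annotated, in 232 coding pairs, they were 30.2% and 15.1%. Equal lengths were found in 29 pairs. The intron between neighbours had a median of 3353 nt and ranged from 73 to 132417 nt.

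Runs longer than a pair were uncommon. Of 1964 runs of neighbours, 1697 had 2 exons, 229 had 3, 37 had 4 and 1 had 5. The run of 5 was in FTO, an RNA demethylase, where the 4 pairs had differences between -0.025 and 0.026 in the authors' deposited table, all at a p-value of 1.

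The RBFOX element was searched within exons only, as GCATG on the transcribed strand. Its complement read 5′ to 3′, CATGC, was searched in the same way, and the motifs can overlap by 4 letters. GCATG occurred in 413 of 4148 member exons, or 9.96%, and in 11.9% of 20883 other exons. Between 100 and 150 nt, where lengths are matched, both shares were 10.8%. Among passing members 16 of 194 held it, or 8.25%. CATGC occurred in 11.4% of members and 11.6% of the others. The flanking introns, where RBFOX sites usually act, were not analysed here.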

How the data were processed

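Libraries of 4 HEK293T clones were grouped by genotype and title. The deposited skipped-exon table holds junction-read results from rMATS, per the file headers. STAR 2.7.3a and the build hg19 are named in the submitters' processing notes, with no role or order. Each event has a p-value and an FDR that the authors deposited. The deposited inclusion difference was treated as a score, and the effective lengths of both forms are other values the authors gave per event. The 6 columns per library carry only set numbers and match no label, so they were not used, and the library depth is not given.

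Pairs were found from positions, shown 1-based. Exons were matched to GENCODE 29 (GRCh38) by gene identifier and by exon and intron lengths, with no coordinate converted. Neighbours of up to 1000 nt were aligned globally (match 1, mismatch -1, gap opening -3, extension -1). An event with a deposited FDR under 0.05 and an absolute difference of at least 0.1 passed. No new test was run. Pair finding, order and calls were tested on simulated data, but the matching to GENCODE 29 was not.

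Named pairs, 1 per gene, were every pair with both events passing up to 10 per direction, the 5 with 1 event passing at the lowest p-value and a neighbour at an FDR of at least 0.5, and listed genes with a passing event. Other genes were named after their values were seen, and 1 pair so chosen is not reported here. The lists were RBFOX responders, mutually exclusive exons, tandem cassettes and splicing factors. All members and lists were chosen with earlier results of these data known. Alternatives were FDR limits of 0.01 and 0.1, differences of 0 and 0.2, Bonferroni correction, 1 pair per gene, pairs without a p-value of 1 and pairs consecutive in GENCODE. The tools were Biopython 1.88, matplotlib 3.10.9, numpy 2.4.6, pandas 2.3.3, scipy 1.17.1 and Python 3.11.15.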

Additional observations from a re-analysis of the deposited data

How the results depend on the processing

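At an FDR limit of 0.01, 136 member events, 133 exons and 3 pairs with both neighbours passed. Under Bonferroni correction over all events, 54 events, 54 exons and 0 pairs passed. Both settings are stricter by construction. Among pairs without a p-value of 1 in either event, which are fewer, 107 events and 104 exons passed and 49.0% of pairs had the same sign. Of the pairs with both neighbours passing, 2 are consecutive in GENCODE 29. By any of its events, 343 member exons passed, against 201 by events of pairs. The other alternatives were an FDR limit of 0.1, differences of 0 and 0.2, and 1 pair per gene. These gave 147 to 246 events, 143 to 239 exons and 4 to 8 pairs, beside 207, 201 and 6. The share of the same sign was 50.7% with 1 pair per gene, beside 51.5% over all pairs. It was 51.1% in pairs consecutive in GENCODE, 51.1% with at least 1 passing event and 52.6% where both p-values were under 0.05.

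No paired analysis was possible because the columns of the table carry no replicate number, although clone numbers 2 and 3 recur in the titles of both genotypes. Leaving out a library was not run for the same reason. Junction counts per library were not used, so the part of depth in the p-values of 1 was not tested.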
